A study of Rattus norvegicus with 14 samples.

Results

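Glutathione S-transferases and the enzyme that starts glutathione synthesis were measured in the livers of rats on a vitamin A-deficient or a vitamin A-sufficient diet. The genes were taken by name: the alpha-class transferases Gsta2, Gsta5 and Gsta4, the mu-class Gstm1 and Gstm2, the pi-class Gstp1, the theta-class Gstt1 and Gstt2, and the catalytic and modifier subunits of glutamate-cysteine ligase, Gclc and Gclm. Every probe set whose platform annotation holds one of these symbols was used, which gave 18 of the 8740 probe sets besides controls and covered all 10 genes, of 5147 gene symbols on the array. All 18 passed the filter on dim probe sets, which left 5244 tested. A probe set is the group of short probes that reads out a transcript on these Affymetrix arrays, and several genes here have more than 1.

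The livers came from 74-day-old male rats that had been on their diet for 53 days, and the strain is not given in the sources used here. Targets were prepared from about 10 µg of RNA for 4 arrays of each diet (numbers 1 to 4) and from about 2 µg for another 3 (numbers 1, 2 and 4). After the shift between RNA amounts was removed, the arrays that shared a diet and a number were averaged, and each average is called a liver here, so that each diet had n = 4. Number 3 rests on its 10 µg array alone in both groups. The labels do not state which arrays share a liver or whether each number is a separate animal, and the p-values rest on the spread of these averages, which may be partly technical. Trimmed mean intensities of the 14 arrays lay between 1001.9 and 1002.1, median intensities between 175.1 and 231, and 0 pairs of arrays held identical values. Levels are log2 of the scaled intensity plus 16, given as mean ± SD over 4 livers. Differences are deficient minus sufficient on this scale, on which the change of dim probe sets is understated. Adjusted p-values are from limma with Benjamini-Hochberg adjustment over the 5244 probe sets. Precision is limited by how few arrays there are, and probe sets of different genes were not ranked by level, since probes differ in brightness.

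Glutathione is a small peptide that keeps cells reduced and is used to tag reactive compounds for export. Glutamate-cysteine ligase joins glutamate to cysteine in the rate-limiting step of its synthesis, and glutathione S-transferases attach the finished glutathione to drugs, toxins and oxidised lipids. Liver is rich in alpha- and mu-class transferases, and many of these genes are induced by the transcription factor Nrf2 through antioxidant response elements. Vitamin A acts on genes mainly as retinoic acid, through nuclear receptors that bind repeats of the hexamer AGGTCA.

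The transferase genes lie in clusters. In RefSeq GRCr8, Gsta2, Gsta5, Gsta4 and Gclc were on chromosome 8, Gstm1, Gstm2 and Gclm on chromosome 2, Gstt1 and Gstt2 on chromosome 20, and Gstp1 on chromosome 1. All 10 platform symbols matched RefSeq by Entrez identifier with 0 changed. The names of the alpha class have moved over time: RefSeq lists Gsta2 as a synonym of Gsta5, and Gsta1 as a synonym of Gsta2. RefSeq promoters were matched for 8 of the 10 genes, all but Gstt1 and Gstt2. The 250 bases before the start of 4 of them are printed 5′ to 3′ on the gene's strand, Gsta2 and Gsta5 because they share the probe set that differed by diet, Gstm1 and Gstp1 because they hold a retinoid receptor hexamer and an antioxidant response element core. Capitals mark matches to the motifs searched.
Gsta2 (chr8:88077093-88077342, minus strand): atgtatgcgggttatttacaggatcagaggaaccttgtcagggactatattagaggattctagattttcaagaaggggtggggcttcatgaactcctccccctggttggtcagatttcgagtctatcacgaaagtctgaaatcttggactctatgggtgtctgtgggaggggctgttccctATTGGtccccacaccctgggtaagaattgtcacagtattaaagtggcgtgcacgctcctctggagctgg
Gsta5 (chr8:87988104-87988353, plus strand): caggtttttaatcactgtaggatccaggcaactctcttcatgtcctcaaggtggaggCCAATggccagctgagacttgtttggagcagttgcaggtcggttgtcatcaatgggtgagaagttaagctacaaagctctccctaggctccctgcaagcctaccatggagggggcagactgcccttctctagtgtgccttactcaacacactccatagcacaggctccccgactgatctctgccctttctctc
Gstm1 (chr2:198343384-198343633, minus strand): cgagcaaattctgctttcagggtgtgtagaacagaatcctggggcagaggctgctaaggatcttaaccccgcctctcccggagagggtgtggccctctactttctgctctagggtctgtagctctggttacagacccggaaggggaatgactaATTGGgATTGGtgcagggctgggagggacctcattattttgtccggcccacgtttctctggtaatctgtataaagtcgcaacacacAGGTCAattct
Gstp1 (chr1:210769706-210769955, minus strand): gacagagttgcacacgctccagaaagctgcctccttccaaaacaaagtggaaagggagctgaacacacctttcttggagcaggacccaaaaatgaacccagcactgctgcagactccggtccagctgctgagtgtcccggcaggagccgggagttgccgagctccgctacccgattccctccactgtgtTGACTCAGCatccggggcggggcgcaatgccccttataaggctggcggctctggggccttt

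The motifs were searched on both strands and, as descriptions of these letters alone, are set beside their share of 33469 RefSeq promoter windows of the same length. The antioxidant response element core TGACNNNGC, found in 10.1% of windows, occurred in Gstp1 and Gclm. In Gstp1 it starts at base -61 from the start site as TGACTCAGC, and it overlaps TGACTCA, a match to the AP-1 motif TGANTCA, which occurs in 6.34% of windows. In Gclm the core lies on the opposite strand and was read as GCTTAGTCA, with its first base at -172. The hexamer AGGTCA, found in 14.1% of windows, occurred once, in Gstm1 at base -11. CCAAT, found in 34.0% of windows, occurred in Gsta2, Gsta4, Gsta5, Gstm1 and Gstm2, on the opposite strand as ATTGG in Gsta2 and Gstm1. GTTAAT, the core bound by the hepatocyte factor HNF1 and found in 6.45% of windows, was not among these letters in any of the 8 windows. The Gclc window held none of the motifs searched.

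Of the 18 probe sets, 1 fell in vitamin A deficiency, 0 rose and 17 did not pass the test. It was a probe set of the alpha class, annotated to both Gsta5 and Gsta2, which was 2.22-fold lower in deficient livers. Among all 5244 probe sets 90 passed, which is 1.72%, with 51 lower (0.973%) and 39 higher (0.744%). After scaling by the median of each array instead, the split was 60 lower and 17 higher. The difference was below 0 for 12 of the 18 probe sets and above 0 for 6, with a median of -0.123, where 41.6% of all tested probe sets were below 0 and their median was 0.0438. With common-median scaling 16 of the 18 and 53.9% of all probe sets were below 0, and with quantile normalization 13 and 48.5%; the median of all probe sets was then -0.0194 and 0.007. In 3 of the 18, a Gsta5/Gsta2 probe set and a pair of Gstm1 probe sets, every deficient liver lay below every sufficient one, which was so for 3.07% of all probe sets. In 0 of the 18 did every deficient liver lie above, which was so for 5.84%, and 8.91% of all probe sets had no overlap in either direction.

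**Figure D1:**
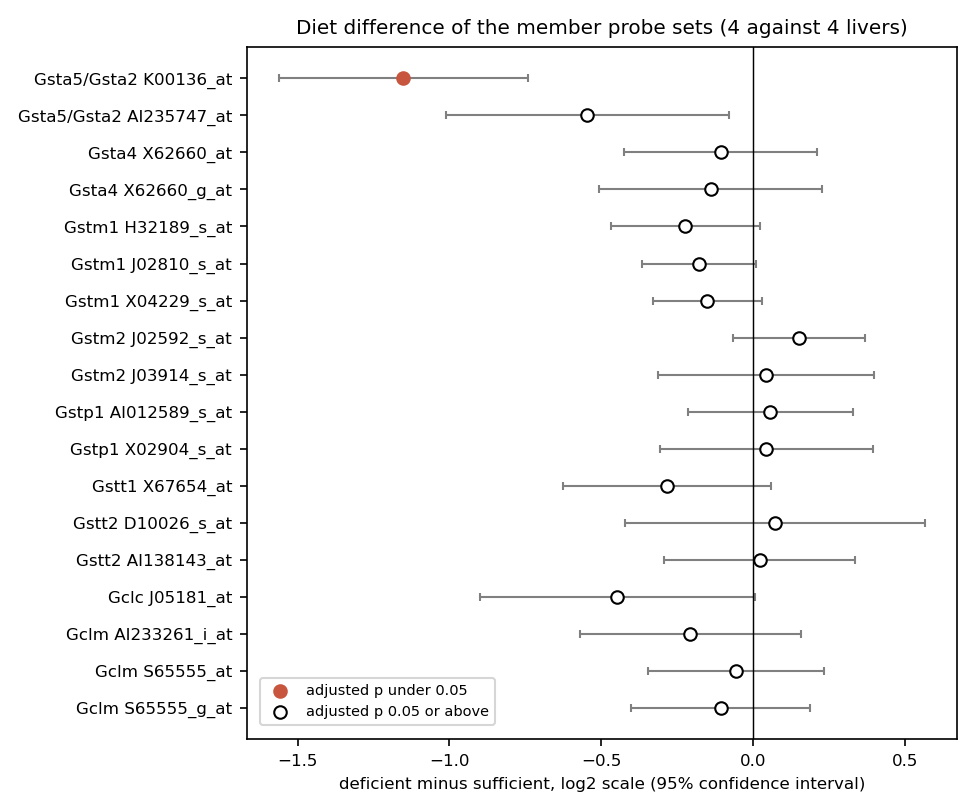
Diet difference (deficient minus sufficient, log2 scale) of each of the 18 probe sets with its 95% confidence interval, n = 4 livers per diet; the filled point has an adjusted p under 0.05. A single Gsta5/Gsta2 probe set, K00136, stands at -1.15 with an interval from -1.56 to -0.74, and the other 17 lie between -0.55 and 0.15.

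The alpha class holds the transferases best known for binding bilirubin, steroids and haem in hepatocytes and for reducing lipid peroxides. The array reads Gsta5 and Gsta2 together: the probe sets K00136 and AI235747 are each annotated to both genes, so their signals cannot be divided between them. On the 10 µg arrays the scaled intensity of K00136 was 5531, 5380, 7363 and 4265 in sufficient livers 1 to 4 and 2523, 2256, 3311 and 2059 in deficient livers 1 to 4. On the 2 µg arrays it was 4735, 6250 and 5698 in sufficient livers 1, 2 and 4 and 2970, 2754 and 1815 in deficient livers 1, 2 and 4. All 7 deficient arrays lay below all 7 sufficient arrays, and liver 3 was the highest of its group in both diets. Averaged by liver, the levels were 12.33, 12.51, 12.91 and 12.27 in sufficient livers and 11.43, 11.29, 11.76 and 10.93 in deficient livers. The mean fell from 12.50 ± 0.29 to 11.35 ± 0.34, a difference of -1.15 (SE 0.19, 95% interval -1.56 to -0.74, adjusted p = 0.00923, n = 4 and 4). It ranked at place 44 of 5244 among the lowest differences and at place 39 by p. The call held in all 20 alternative settings, with differences from -1.29 to -1.01 and adjusted p-values from 0.000274 to 0.0427.

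**Figure D2:**
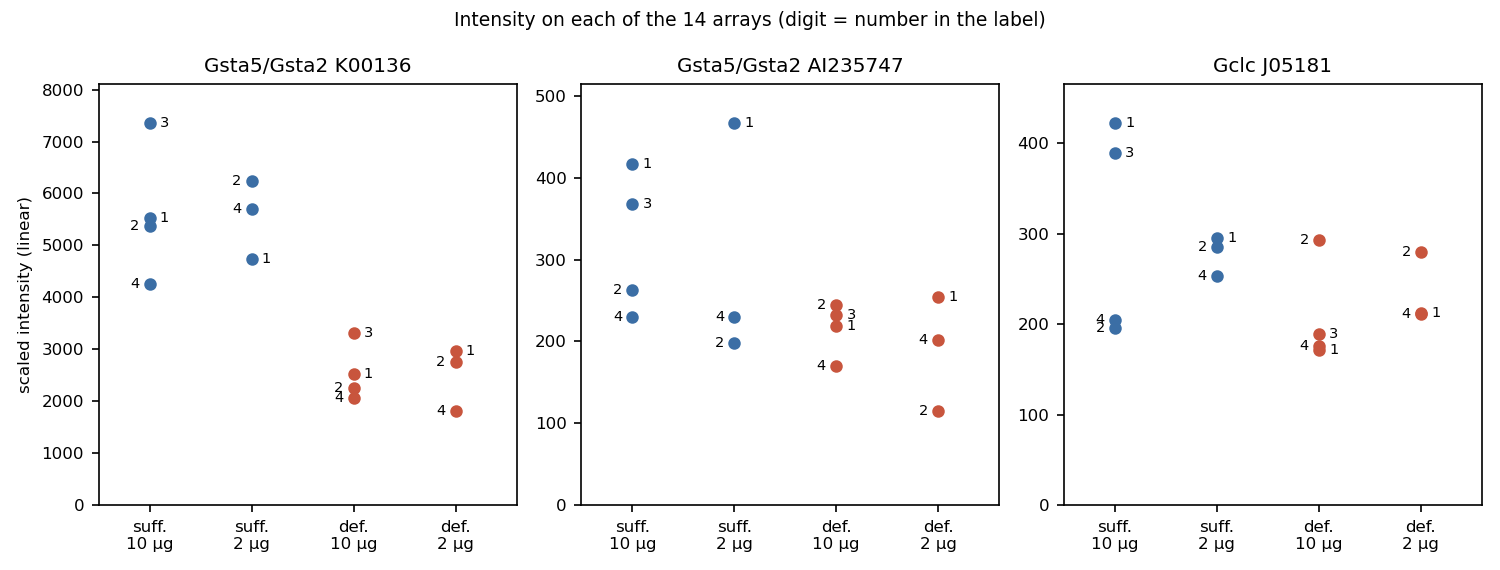
Scaled intensity, on a linear axis from 0, on each of the 14 arrays for both Gsta5/Gsta2 probe sets and for Gclc, by diet and RNA amount; each point is an array and its digit is the number in the label. For K00136 the 7 deficient arrays lie between 1815 and 3311 and the 7 sufficient arrays between 4265 and 7363, while for AI235747 and Gclc the groups overlap.

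The other Gsta5/Gsta2 probe set, AI235747, was dimmer and did not pass. Its levels were 8.84, 7.93, 8.52 and 7.94 in sufficient livers 1 to 4 and 7.97, 7.52, 7.89 and 7.65 in deficient livers 1 to 4. Sufficient livers 1 and 3 were high, and livers 2 and 4 overlapped with the deficient group. The means were 8.31 ± 0.45 and 7.76 ± 0.21, a difference of -0.55 (SE 0.21, 95% interval -1.01 to -0.08, adjusted p = 0.271). It and K00136 were the 2 of the 18 probe sets with an unadjusted p under 0.05, which 14.5% of all tested probe sets had.

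Gsta4 encodes the alpha-class enzyme that clears hydroxynonenal, a product of lipid peroxidation. Neither of its probe sets passed. X62660_at had levels of 9.93 ± 0.21 in sufficient and 9.82 ± 0.19 in deficient livers, a difference of -0.11 (95% interval -0.42 to 0.21, adjusted p = 0.825). X62660_g_at had levels of 10.55 ± 0.32 and 10.41 ± 0.19, a difference of -0.14 (95% interval -0.51 to 0.23, adjusted p = 0.800). Both intervals lie above -0.74, the upper bound of the interval of K00136. That probe set is singled out because it passed, so this describes the intervals and is no test between the genes.

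The difference of K00136 was then set against that of the 7 other tested alpha-class probe sets, as log ratios within each liver. This comparison was chosen after the values were seen, with K00136 picked because it passed, and so describes these livers. Its p-values are partly set by that choice and are no test. Several of the 7 read the same gene. The difference of K00136 minus that of the other probe set was -1.04 for Gsta4 X62660_at, -1.01 for Gsta4 X62660_g_at, -1.07 for Gsta1 K01932 and -0.95 for Gsta1 S72505. In these 4 comparisons the log ratios of the diets did not overlap, and the two-sided exact permutation p was 0.0286, the smallest that 4 against 4 allows, or 0.05 after Benjamini-Hochberg adjustment over the 7, which is at the threshold and not under it. Against the Gsta1 probe set X78848 the value was -1.07 (exact p = 0.0571, adjusted 0.08). Against AI235747 it was -0.61 (exact p = 0.0857, adjusted 0.1) and against Gsta3 -0.78 (exact p = 0.229, adjusted 0.229).

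The mu-class enzymes are the main transferases of rat liver for aromatic epoxides and other electrophiles. None of the 5 mu-class probe sets passed. All 5 are of the type whose probes can match more than 1 transcript, and members of this class are close in sequence, so signal may be shared between Gstm1 and Gstm2 and with other mu-class genes. For Gstm1, J02810 had levels of 13.01, 12.90, 13.03 and 12.93 in sufficient livers 1 to 4 and of 12.78, 12.80, 12.72 and 12.85 in deficient livers 1 to 4. X04229 had levels of 13.65, 13.53, 13.69 and 13.55 in sufficient livers and 13.45, 13.46, 13.49 and 13.42 in deficient livers. In both probe sets the diets did not overlap, at a small distance. The difference of J02810 was -0.18 (SE 0.09, 95% interval -0.37 to 0.01, adjusted p = 0.375) and that of X04229 was -0.15 (SE 0.08, 95% interval -0.33 to 0.03, adjusted p = 0.457). The third Gstm1 probe set, H32189, had levels of 13.55 ± 0.15 and 13.33 ± 0.16 in sufficient and deficient livers, with overlapping groups and a difference of -0.22 (95% interval -0.47 to 0.02, adjusted p = 0.401). All 3 Gstm1 intervals include 0 and none reaches below -0.47.

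Gstm2 values ran the other way from Gstm1 by sign, and did not pass either. J02592 had levels of 13.12 ± 0.16 in sufficient and 13.27 ± 0.05 in deficient livers, a difference of 0.15 (95% interval -0.07 to 0.37, adjusted p = 0.566). Its wide spread in the sufficient group came from liver 4, at 12.89 where the next was 13.18. J03914 had levels of 12.14 ± 0.35 and 12.18 ± 0.14, a difference of 0.04 (95% interval -0.31 to 0.40, adjusted p = 0.954), and its sign changed with common-median scaling.

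**Figure D3:**
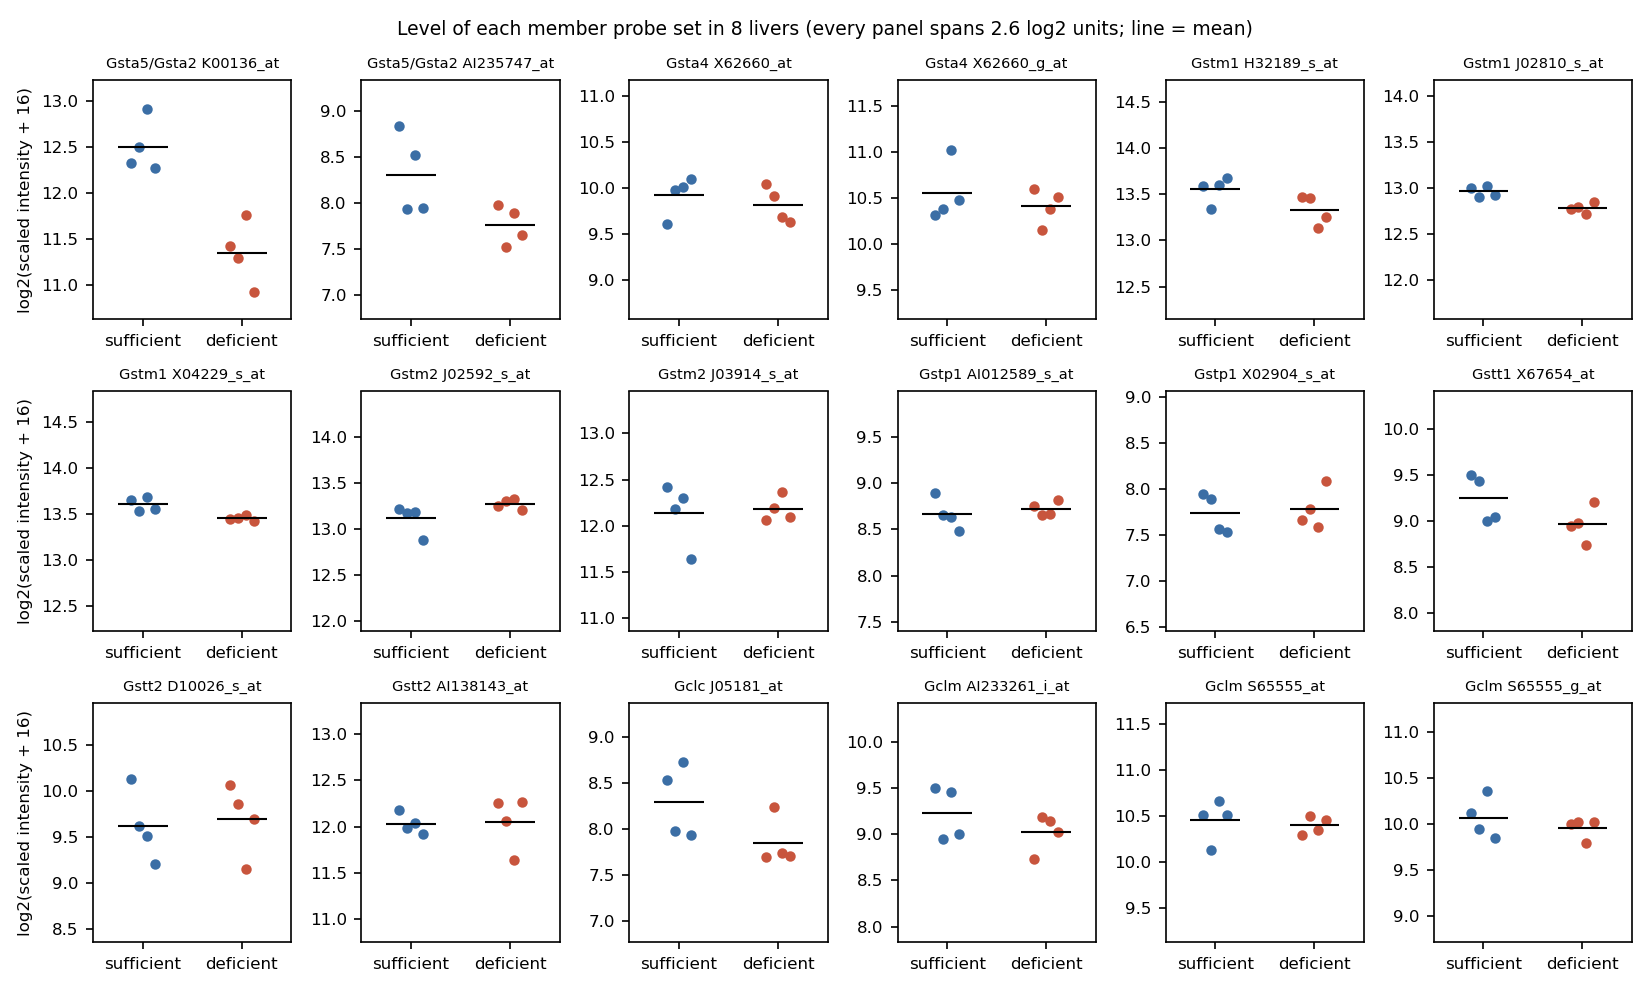
Level, as log2 of the scaled intensity plus 16, of each of the 18 probe sets in the 4 sufficient (blue) and 4 deficient (red) livers; each point is a liver, the line is the group mean, and every panel spans the same number of log2 units. The groups stand apart for K00136 and by a narrow margin for Gstm1 J02810 and X04229, and they overlap in the other 15 panels.

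Gstp1, the pi-class enzyme, is scarce in healthy adult rat hepatocytes and is a classic marker of altered liver foci. Its probe set AI012589 had levels of 8.67 ± 0.17 in sufficient and 8.73 ± 0.07 in deficient livers, a difference of 0.06 (95% interval -0.21 to 0.33, adjusted p = 0.905). X02904 had levels of 7.74 ± 0.22 and 7.78 ± 0.22, a difference of 0.04 (95% interval -0.31 to 0.39, adjusted p = 0.948). The sign of these small values changed with common-median scaling, and that of X02904 with quantile normalization too. Both probe sets were above the filter on dim signals in the averages of both diets.

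The theta-class enzymes act on halogenated solvents and organic hydroperoxides. Gstt1 had scaled intensities of 710.4, 677.3, 497 and 513.6 in sufficient livers 1 to 4 and of 475.4, 488.2, 410.3 and 573.5 in deficient livers 1 to 4. Sufficient livers 1 and 2 lay above all deficient livers and livers 3 and 4 among them. The mean levels were 9.25 ± 0.26 and 8.96 ± 0.19, and the difference of -0.28 did not pass (SE 0.16, 95% interval -0.63 to 0.06, adjusted p = 0.465). For Gstt2, D10026 had levels of 9.62 ± 0.38 and 9.69 ± 0.39 in sufficient and deficient livers, a difference of 0.07 with a wide interval (-0.42 to 0.57, adjusted p = 0.936). AI138143 had levels of 12.03 ± 0.11 and 12.05 ± 0.29, a difference of 0.02 (95% interval -0.29 to 0.34, adjusted p = 0.971), and its sign changed with common-median scaling.

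In glutathione synthesis, Gclc encodes the catalytic subunit of glutamate-cysteine ligase. The levels of Gclc were 8.53, 7.98, 8.73 and 7.93 in sufficient livers 1 to 4 and 7.69, 8.24, 7.74 and 7.70 in deficient livers 1 to 4. Deficient liver 2 lay above sufficient livers 2 and 4, while the other 3 deficient livers lay below all sufficient livers. The means were 8.29 ± 0.40 and 7.84 ± 0.27, and the difference of -0.45 did not pass (SE 0.21, 95% interval -0.90 to 0.01, adjusted p = 0.356). Deficient liver 2 was high on both of its arrays, with scaled intensities of 293.5 from 10 µg and 279.8 from 2 µg, against 171.1 to 212.3 on the other 5 deficient arrays.

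Gclm encodes the modifier subunit, which raises the activity of the catalytic one. Its 3 probe sets had differences of -0.21 (AI233261_i_at, 95% interval -0.57 to 0.16, adjusted p = 0.647), -0.06 (S65555_at, -0.35 to 0.23, adjusted p = 0.912) and -0.11 (S65555_g_at, -0.40 to 0.19, adjusted p = 0.808). Levels were 9.23 ± 0.29 and 9.02 ± 0.21 for AI233261, 10.46 ± 0.23 and 10.40 ± 0.10 for S65555_at, and 10.06 ± 0.23 and 9.96 ± 0.11 for S65555_g_at in sufficient and deficient livers. With a liver left out the difference of AI233261 ranged from -0.298 to -0.109 and that of S65555_g_at from -0.181 to -0.00995. All 4 probe sets of the ligase were below 0 and overlapped between the diets.

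The diet comparison was also read at each RNA amount. The labels do not state whether the arrays of both amounts share livers. At 10 µg alone the difference of K00136 was -1.14 and at 2 µg alone -1.16, and their difference was -0.02 (SE 0.29). For AI235747 the values were -0.50 and -0.57, for Gstt1 -0.27 and -0.30, and for Gclc -0.47 and -0.24. In all, 12 of the 18 probe sets had the same sign at both amounts, as did 5384 of the 8740 probe sets besides controls. The 8740 include dim probe sets and the 18 do not, so these counts are not like for like. Between 2 µg and 10 µg, 0 of the 5244 probe sets passed in limma (0%), with 328 at an unadjusted p under 0.05, and 0 of the 18 were among these. That fit takes the 14 arrays as separate, although arrays of the same diet and number went together. With these as a block 2 probe sets passed, neither of them among the 18, and 1 of the 18, Gclm AI233261_i_at, had an unadjusted p under 0.05 (shift 0.295, adjusted p = 0.437 in limma). The 18 shifts from 10 µg to 2 µg lay between -0.19 and 0.25. The interaction of diet and amount passed in 0 probe sets in limma (0%), with 96 at an unadjusted p under 0.05 and 0 of the 18 among them.

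**Figure D4:**
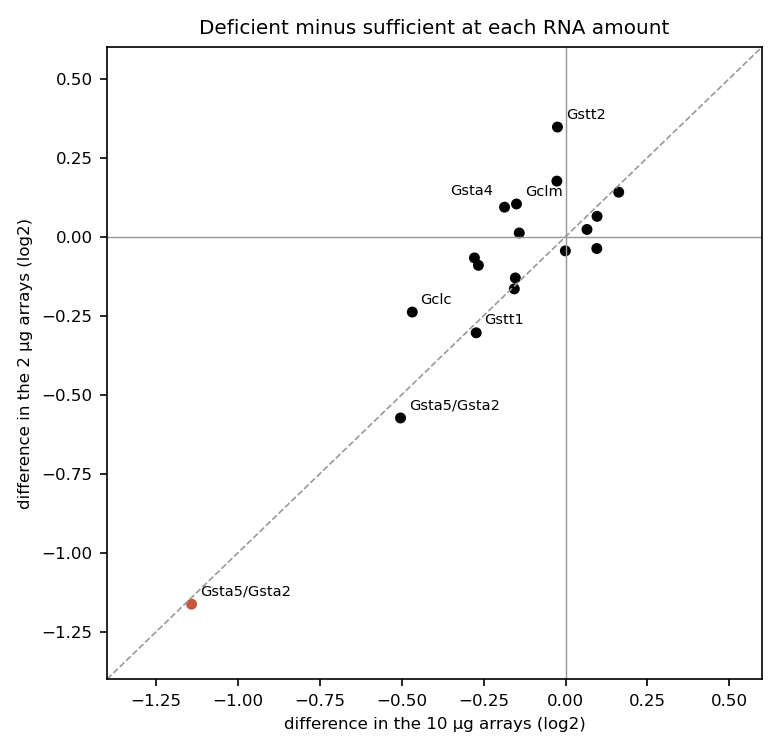
Diet difference (log2 scale) of each of the 18 probe sets on the 10 µg arrays (x axis, 4 against 4) and on the 2 µg arrays (y axis, 3 against 3); the dashed line marks equal values and the red point is K00136. K00136 lies on the line at -1.14 and -1.16, and the points near 0 scatter to both sides of it.

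Among the other transferases and related enzymes, 10 of 20 listed genes were measured and 9 tested. By the brightest probe set of each gene 0 passed in limma, 3 differences were above 0 and 6 below, and their median was -0.0259. Of all tested probe sets 41.6% were below 0 and 14.5% had an unadjusted p under 0.05. On this list 1 gene had such a p. That gene was Gsto1, the omega-class transferase, which reduces dehydroascorbate and methylated arsenic. Its brightest probe set, AB008807_g_at, had levels of 10.83, 10.61, 10.94 and 10.71 in sufficient livers 1 to 4 and 9.95, 10.18, 10.17 and 10.49 in deficient livers 1 to 4. The groups did not overlap, and the difference was -0.58 (SE 0.14, adjusted p = 0.0626). It passed in 2 of 20 alternatives, without deficient liver 4 (adjusted p = 0.0481) and with 14 arrays and a random block (0.0174), and the largest adjusted p was 0.314. The random block called 250 probe sets in all, where the main fit called 90. The second Gsto1 probe set, AB008807_at, described here after its values were seen, fell from 10.41 ± 0.17 to 9.76 ± 0.15, or 1.57-fold (difference -0.66, SE 0.13, adjusted p = 0.0239), also without overlap. That call was lost in 10 of 20 alternatives, with adjusted p-values up to 0.226, among them the fit with the number as a block (adjusted p = 0.054) and the fits without deficient liver 1, 2 or 3 or sufficient liver 1, 3 or 4 (adjusted p from 0.056 to 0.0755).

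Other alpha-class genes on that list did not pass. Gsta1, read by 3 probe sets of the kind shared across a gene family, had differences of -0.08 (K01932), -0.20 (S72505) and -0.08 (X78848, adjusted p = 0.879). Gsta3 varied widely, with levels of 8.72 ± 0.77 in sufficient and 8.36 ± 0.68 in deficient livers, a difference of -0.37 (SE 0.39, adjusted p = 0.759).

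Genes that use, recycle or break down glutathione were listed as well, and of 27 listed 19 were measured and 16 tested. By the brightest probe set 0 passed in limma, 9 were above 0 and 7 below, and the median was 0.043. An unadjusted p under 0.05 was seen for 2, beside 14.5% of all tested probe sets, of which 41.6% were below 0. Gpx1, the main cytosolic glutathione peroxidase, had levels of 13.55 ± 0.14 in sufficient and 13.86 ± 0.10 in deficient livers, with no overlap and a difference of 0.32 (SE 0.10, adjusted p = 0.162), and passed in 1 of 20 alternatives, the 14 arrays with a random block for shared diet and number (adjusted p = 0.0445). Another tested Gpx1 probe set, X07365, overlapped between the diets, with a difference of 0.24 (adjusted p = 0.357). Prdx1, a peroxiredoxin, had a difference of -0.26 (SE 0.11, adjusted p = 0.292). Anpep, a peptidase that completes the breakdown of extracellular glutathione, had one of 0.29 (SE 0.16, adjusted p = 0.477). The other Anpep probe sets had differences of 0.39 (AF039890, adjusted p = 0.345) and -0.04 (AF039891, adjusted p = 0.952). Gss, which encodes the enzyme of the last step of glutathione synthesis, and Gsr, which returns oxidised glutathione to the reduced form, are given for their roles. The 2 Gss probe sets had differences of -0.31 (L38615_at, adjusted p = 0.418) and -0.11 (L38615_g_at, adjusted p = 0.802), and the brightest Gsr probe set one of -0.11 (adjusted p = 0.794).

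Cysteine is the limiting amino acid of glutathione, and the liver makes it from methionine through homocysteine and cystathionine. Of 15 listed genes of methionine, cysteine and taurine metabolism, 12 were measured and 11 tested, and 0 passed in limma. Of the 11, 7 had an unadjusted p under 0.05, beside 14.5% of all tested probe sets. By sign 7 were above 0 and 4 below, where 41.6% of all tested probe sets were below 0, and the median was 0.247. The list was chosen with earlier results of these data known, so these counts describe it and are no test of it. Cth, which releases cysteine from cystathionine, had levels of 11.57 ± 0.48 in sufficient and 12.46 ± 0.18 in deficient livers, with every deficient liver higher (difference 0.89, SE 0.21, adjusted p = 0.0613). Its other probe set, D17370_g_at, had a difference of 1.02 (SE 0.28, adjusted p = 0.11). Bhmt, which turns homocysteine back into methionine, had levels of 11.66 ± 0.37 and 12.60 ± 0.63 (difference 0.95, SE 0.28, adjusted p = 0.142). Csad, which directs cysteine toward taurine, had levels of 12.33 ± 0.10 and 11.63 ± 0.41 (difference -0.69, SE 0.18, adjusted p = 0.0876). All 3 passed when the 14 arrays were kept apart with a random block for arrays that share a diet and number, at adjusted p = 0.00308 for Cth, 0.0103 for Bhmt and 0.0114 for Csad. That setting called 250 probe sets in all, where the main fit called 90. In all, Cth passed in 3, Bhmt in 2 and Csad in 2 of 20 alternatives, with adjusted p-values of up to 0.165, 0.323 and 0.271. The other passes came with a liver left out: Cth without sufficient liver 1 (adjusted p = 0.0464) or 4 (0.0435), Bhmt without deficient liver 3 (0.0421), and Csad without deficient liver 2 (0.0029).

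Of 36 listed genes linked to Nrf2 or inducible by foreign compounds, 20 were measured and 19 tested, and 0 passed in limma. Of these, 9 were above 0 and 10 below, where 41.6% of all tested probe sets were below 0, and the median was -0.0118. An unadjusted p under 0.05 was found for 6, beside 14.5% of all tested probe sets. Ephx1, microsomal epoxide hydrolase, had levels of 12.95 ± 0.19 in sufficient and 12.43 ± 0.11 in deficient livers (difference -0.51, SE 0.11, adjusted p = 0.0514). Akr7a3, an aldo-keto reductase that acts on aflatoxin aldehyde, had levels of 11.14 ± 0.51 and 10.08 ± 0.30 (difference -1.06, SE 0.24, adjusted p = 0.0514). Ephx1 passed in 4 and Akr7a3 in 7 of 20 alternatives, with adjusted p-values of up to 0.332 and 0.218. Both passed with the random block (adjusted p = 0.0179 and 0.0059), and Akr7a3 with the number as a block (0.0215) and without deficient liver 1 (0.0469) or sufficient liver 2 (0.0246). Cyp1a1, a cytochrome induced by aromatic hydrocarbons, had levels of 5.71 ± 0.93 in sufficient and 7.34 ± 0.51 in deficient livers (difference 1.63, SE 0.42, adjusted p = 0.0914). Its sufficient mean lay below the filter level of 6.196, so it was tested only through its level in deficient livers. Its difference and p-values are therefore descriptions. It passed in 2 of 19 alternatives, without sufficient liver 1 (adjusted p = 0.0396) and with the random block (0.03). The rest of this list with an unadjusted p under 0.05 were all lower in deficient livers. They were Cyp2b2 (difference -2.05, adjusted p = 0.134), Me1 (-0.84, 0.147) and Cyp1a2 (-0.46, 0.131). Of the targets of Nrf2, Nqo1 and Hmox1, named for their roles, had differences of 0.29 (adjusted p = 0.469) and 0.24 (0.568). The gene of Nrf2 itself, Nfe2l2, had one of 0.22 (0.745).

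The profile of K00136 over the 8 livers had the largest SD of the 18, 0.68. The 5 probe sets with a single other gene symbol whose profiles lay closest to it were taken from 4313, by the root mean square difference between profiles centred on their own means. They were Sult1c3, a sulfotransferase, at 0.232, Hba-a3, an alpha globin, at 0.258, Hao2, a peroxisomal hydroxyacid oxidase, at 0.26, Car3, a carbonic anhydrase, at 0.283, and Ghr, the growth hormone receptor, at 0.3, where the next was at 0.303 and the median of all was 0.695. The diet differences of Sult1c3, Hba-a3, Hao2, Car3 and Ghr were -1.24 (adjusted p = 0.00186), -0.98 (0.0037), -0.81 (0.0598), -1.16 (0.0785) and -1.21 (0.00793). Hao2 and Car3 passed with the number as a block (adjusted p = 0.0477 and 0.00229) and with the random block (0.00416 and 0.00703), and in 5 and 4 of 20 alternatives in all. Hao2 also passed without deficient liver 1 (0.0183), and Car3 without deficient liver 3 (0.0439) or sufficient liver 4 (0.0208). Since each liver of a diet adds to likeness through the diet difference itself, these are descriptions over 8 values.

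Markers of cell types in liver were read beside these results, and in such bulk RNA fewer cells of a type and less RNA per cell cannot be told apart. Of all tested probe sets 0.973% passed as lower in deficient livers, 0.744% passed as higher, and 14.5% had an unadjusted p under 0.05. Hepatocyte markers were bright in every liver, with summed scaled intensities of 183000 to 234700 in sufficient and 223700 to 252200 in deficient livers, and 0 of 11 passed in limma, at an unadjusted p under 0.05 for 4. All 11 were above 0, with a median of 0.193, where 41.6% of all tested probe sets were below 0 and their median was 0.0438. The 3 with the smallest p were the apolipoprotein Apoa1 (difference 0.63, adjusted p = 0.157), the liver transcription factor Hnf4a (0.33, 0.244) and the fibrinogen chain Fga (0.23, 0.34). Erythroid markers moved with the diet in the same direction as K00136: 4 of 6 fell, with differences of -1.46 for Hbb (adjusted p = 0.00178), -1.31 for Hbb-b1, -1.23 for Alas2 and -0.98 for Hba-a3, and the summed intensity was 12800 to 15880 in sufficient and 3981 to 6782 in deficient livers. Of the endothelial markers 1 of 4 fell, Lyve1 (difference -1.04, adjusted p = 0.0071, and 0.0947 on the 2 µg arrays alone), with sums of 1861 to 2106 and 1578 to 2039. Macrophage markers summed to 4328 to 6535 and 6529 to 9365 in sufficient and deficient livers, and 1 of 5 rose, Lgals3 by 0.77 (adjusted p = 0.0492, lost in 16 of 20 alternatives and without any 1 liver of either group). All 5 were above 0, with a median of 0.324, among them Ctss at 0.65 with every deficient liver higher (adjusted p = 0.0706). Stellate cell markers summed to 2326 to 3135 and 2479 to 2841, and 1 of 8 rose, Vim by 0.80 (adjusted p = 0.0343, lost in 10 of 20 alternatives, among them without deficient liver 2 or 4 or any sufficient liver), while 6 of the 8 were below 0 and the list's median was -0.192. The collagen gene Col1a1 had a difference of -0.85 with every deficient liver lower (adjusted p = 0.12). Cholangiocyte markers summed to 721 to 782.8 and 649.7 to 917.1, and 0 of 6 passed in limma, at an unadjusted p under 0.05 for 3. These 3 were the water channel Aqp1, with every deficient liver lower (difference -1.04, adjusted p = 0.0563), and osteopontin, Spp1 (0.62, 0.126), and the adhesion molecule Epcam (0.40, 0.27), with every deficient liver higher.

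Transferases and glutathione synthesis are zoned along the liver lobule, so zone markers were read too. Of all tested probe sets 0.973% passed as lower and 0.744% as higher, and 41.6% had a difference below 0. Of 7 tested pericentral markers 1 fell, Oat (difference -1.11, adjusted p = 0.0163). That call was lost in 3 of 20 alternatives: on the 2 µg arrays alone (adjusted p = 0.218), without deficient liver 4 (0.0636) and without sufficient liver 3 (0.0602). The pericentral sums were 42630 to 53680 in sufficient and 50760 to 58770 in deficient livers. Cyp2e1, with a mean level of 15.08, weighs most in these sums. Of the 7, 3 were above 0 and 4 below, with a median of -0.297. Among them were the cytochromes Cyp2e1, at 0.43 with every deficient liver higher (adjusted p = 0.0675), and Cyp1a2, at -0.46 (adjusted p = 0.131). Glul was at -0.50 (adjusted p = 0.262). Of 9 periportal markers 2 rose, Sds by 2.09 and Arg1 by 0.63 (adjusted p = 0.0311, lost in 10 of 20 alternatives, among them without any deficient liver or sufficient liver 1, 3 or 4), with sums of 32790 to 41940 and 40010 to 46690. In this list 8 of the 9 were above 0 and 1 below, with a median of 0.339. For all of these lists 0 markers had a median intensity of 0. The ratio of 3′ to 5′ control probe sets, a sign of RNA integrity, had a diet difference of 0.06 on the log2 scale for GAPDH and of -0.09 for beta-actin, with exact permutation p-values, two-sided, of 0.743 and 0.457. The part of these shifts in the difference of K00136 was not tested.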

How the data were processed

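Total RNA of rat liver was extracted with a column kit and hybridised to Affymetrix rat arrays, per the labels' protocols. The authors deposited 1 table of a linear intensity per probe set and array; the program and its normalization: not given in the sources used here. Each array's 2% trimmed mean was near 1002, so the deposited intensity had been scaled already. All 14 columns matched a label, and 0 columns were left out. In the platform annotation 7006 probe sets carry 1 symbol, 308 several and 1426 none.

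After 59 control probe sets were dropped, arrays were scaled to 500 by the trimmed mean, log2(value + 16) was taken, and probe sets under the 40th percentile of mean level (6.196) were left out. The mean shift between RNA amounts over 6 pairs of arrays was removed and arrays of 1 diet and number were averaged, so liver 3 rests on its 10 µg array. The diet test was limma 3.58.1 in R 4.3.3 (lmFit, eBayes with a trend, two-sided, Benjamini-Hochberg, threshold 0.05). The tests of RNA amount and interaction used 14 separate arrays. The scripts were tested on simulated data. Array correlations were taken after the mean of each diet and amount was subtracted from every tested probe set. Arrays of the same diet and number then correlated at 0.202 to 0.351 across amounts, and those of different number at -0.254 to 0.124. Liver averages of the same number across diets, each centred on its diet's mean, correlated at -0.0763 to 0.0672. Such values over all tested probe sets cannot settle whether the numbers pair livers across diets, which the labels do not state.

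The genes and lists were chosen with earlier results of these data known. Named were all probe sets of the 10 genes; from each list the genes that passed and otherwise up to 3 with the smallest p, by the brightest probe set; and the 5 profiles nearest to the most variable probe set. Other genes were named for their roles or after their values were seen. Alternatives were common-median or quantile scaling, pseudocounts of 1 and 64, no filter or the 60th percentile, no trend, each RNA amount alone, the amount shift kept, a random block, the number as a block, and leaving out each liver. Promoter sequences are RefSeq's, of GRCr8.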

Additional observations from a re-analysis of the deposited data

Results flagged for a closer look

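In 8 of 90 groups of 4 livers checked, 1 liver stood apart from the rest of its group, with a gap to its nearest neighbour that made up most of the group's range (above Dixon's critical value), which chance gives in about 1 in 20 groups. Among the glutathione genes these were Gclc in deficient livers, where liver 2 was at 8.24 and the nearest at 7.74 (gap 0.907 of the range), Gclm S65555_g_at in deficient livers, where liver 3 was at 9.79 below a neighbour at 10.0 (0.907), and Gstm2 J02592 in sufficient livers, where liver 4 was at 12.89 below 13.18 (0.865). The others were Hbb in deficient liver 1 (10.92 below 11.72, 0.918), Lgals3 in deficient liver 3 (10.03 above 9.48, 0.837), Ephx1 in sufficient liver 3 (13.23 above 12.88, 0.83), Cyp1a1 in deficient liver 4 (8.1 above 7.16, 0.836) and Arg1 in deficient liver 4 (12.43 below 12.57, 0.848).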

How the results depend on the processing

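The count of 1 of the 18 probe sets called, K00136, was the same in all 20 alternatives. Of 360 values of the 18 probe sets under these alternatives, 336 kept their direction and side of the threshold and 24 changed sign, none of them of a called probe set. With the number across diets as a replicate block 77 probe sets were called by diet, and the block changed no call among the 18. The total of 90 was 33 on the 2 µg arrays alone, where fewer arrays enter, and 250 with 14 arrays and a random block, where the cause was not tested. Leaving out 1 liver gave 52 to 96, with 52 without deficient liver 4 and 58 without sufficient liver 3. The count called by RNA amount was 2 with diet and number as a replicate block, and 0 to 1 with an array left out, at 1 without sufficient 10 µg array 1 or 3. Sign changes were, on the 2 µg arrays alone, Gstm2 J03914 (-0.038), Gclm S65555_g_at (0.103), Gsta4 (0.012 for X62660_at and 0.093 for X62660_g_at), Gsta3 (0.277) and Gsta1 X78848 (0.086). On the 10 µg arrays alone they were Gstt2 D10026 (-0.025) and Gstp1 AI012589 (-0.026). With common-median scaling they were Gstm2 J03914 (-0.026), Gstp1 AI012589 (-0.0083) and X02904 (-0.019), and Gstt2 AI138143 (-0.046), and with quantile normalization Gstp1 X02904 (-0.021). The common-median setting moves all differences by a median of -0.0633, more than the size of each value that changed sign under it, and the cause of the other changes was not tested. With a liver left out, the ranges were -0.065 to 0.251 for Gstt2 D10026, -0.048 to 0.161 for Gstt2 AI138143, -0.125 to 0.137 for Gstm2 J03914, -0.0035 to 0.134 for Gstp1 AI012589, -0.057 to 0.115 for Gstp1 X02904, -0.167 to 0.014 for Gclm S65555_at, -0.216 to 0.019 for Gsta4 X62660_g_at and -0.154 to 0.037 for Gsta1 X78848. Without a sign change they were -0.671 to -0.368 for AI235747, -0.579 to -0.301 for Gclc, -0.366 to -0.199 for Gstt1, -0.293 to -0.158 for Gstm1 H32189, 0.073 to 0.186 for Gstm2 J02592 and -0.211 to -0.045 for Gsta4 X62660_at.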
